A study of Rattus norvegicus with 9 samples.

Results

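Integrin and laminin chain genes were followed in rat primary cultures of oligodendrocyte precursor cells (OPCs), the glial cells that give rise to myelinating oligodendrocytes. The cultures came from WT brain and received no compound (basal), 1 µM bavisant or 10 µM bavisant. All of them, the basal ones included, were kept for 5 days in differentiation medium of DMEM-F12 with B27, N1, biotin and 1% laminin, changed every 2 days. Bavisant is an antagonist of the histamine H3 receptor, and the series asked how gene expression in these cultures differs after treatment at either dose. Each group had 3 libraries, and every group had 1 library titled P11, 1 titled P13 and 1 titled P14. The titles do not say what the P number marks, and no label says that the 3 libraries of a group came from separate cultures or animals, so p-values measure the spread between these libraries, which may be technical. The genes were chosen by name alone, as every integrin alpha chain, integrin beta chain and laminin alpha, beta or gamma chain gene in the deposited tables. That gave 35 of 32623 genes, 25 for integrins and 10 for laminins, each with 1 row. Of these, 31 passed the filter on low counts. Itga10, Itgb6, Itgb7 and Lamb3 did not, with 0 to 12 reads in a library. Itgad, Lama3 and Lamb4 had no row under these names in the deposited tables.

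Laminins are secreted trimers of an alpha, a beta and a gamma chain that polymerise into basement membranes. Integrins are cell surface receptors, each made of an alpha and a beta chain, and the pairing sets the ligand. The alpha-3, alpha-6 and alpha-7 chains with beta-1, and alpha-6 with beta-4, bind laminin. Alpha-1, alpha-2, alpha-10 and alpha-11 bind collagen, and alpha-v chains and alpha-5 beta-1 bind RGD motifs in proteins such as fibronectin and vitronectin. The beta-2 chain is found on leukocytes and microglia. In the oligodendrocyte lineage, alpha-6 beta-1 is the main laminin receptor, and laminin-2, the trimer with the alpha-2 chain, is known as a signal for survival and myelination.

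The libraries held 23.9 to 43.1 M reads. In the order P11, P13, P14 these were 23.9, 29.8 and 33.5 M in basal cultures, 39.2, 34.8 and 43.1 M with 1 µM, and 39.1, 39.3 and 38.0 M with 10 µM. Every basal library thus had fewer reads than every treated library. The cultures matched their label as differentiating oligodendrocyte lineage cells, with Mbp at 17296 to 27242 TPM (a level scaled by gene length and to the same total in each library) and Sox10 at 509 to 642 TPM. Other cell types were present too, since Gfap of astrocytes stood at 561 to 1221 TPM and Aif1 of microglia at 120 to 236 TPM. Gad1 of neurons stood at 20.0 to 110 TPM. The endothelial markers differed among themselves. Cldn5 reached at most 0.0970 TPM, and Sox17 was listed at 0 TPM in every library. Cdh5 stood at 1.40 to 21.9 TPM and Eng at 7.36 to 17.3 TPM. The P11 libraries stood apart, since 50.6% of all 15321 genes tested differed between P11 and the mean of P13 and P14. In such bulk RNA, fewer cells of a type and less RNA per cell cannot be told apart.

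Itgb1, the beta chain shared by most of the matrix-binding integrins, had the highest level of all 35 genes, at 273 ± 13.8 TPM in basal cultures, 268 ± 10.1 TPM with 1 µM bavisant and 247 ± 12.9 TPM with 10 µM (SD, n = 3 each). It made up 71.2% ± 2.76 of the summed TPM of the integrin beta chains in basal cultures, 70.7% ± 3.73 with 1 µM and 74.2% ± 2.06 with 10 µM (SD, n = 3 each). In basal libraries its lowest value, 263 TPM, lay above every value of the next gene. Below it, in the order of the basal means, came the laminin gamma chain Lamc1 at 58.5 ± 29.7 TPM, Itgav at 56.05 ± 3.65 TPM and Itgb8 at 49.6 ± 6.66 TPM (SD, n = 3 each). Lamc1 overlapped Itgav, and Itgav overlapped Itgb8. Itgb8 did not overlap Itgb5 below it, at 31.9 ± 2.26 TPM, and Itgb5 did not overlap Itgal, at 26.4 ± 1.04 TPM (SD, n = 3 each). From Itgal down to Itgam each gene overlapped the next, in the order Itgal, Itgb2, Lamb2, Lamb1, Lama4, Itga6 and Itgam. Itgam, at 14.1 ± 2.71 TPM, lay above Itga8, at 8.40 ± 1.00 TPM (SD, n = 3 each). From Itga8 down to Itga2, at 0.370 ± 0.136 TPM (SD, n = 3), each gene overlapped the next.

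Among the alpha chains, Itgav held the largest part of the summed TPM, 38.5% ± 1.66 in basal cultures, 37.3% ± 2.01 with 1 µM and 40.0% ± 4.21 with 10 µM (SD, n = 3 each). Itga6, the alpha chain of the laminin receptors of this lineage, held 10.6% in basal cultures, 10.9% with 1 µM and 12.1% with 10 µM. Lamc1 made up 99.1% of the laminin gamma chain TPM in basal cultures, 99.0% with 1 µM and 99.4% with 10 µM. Lama4 was the leading laminin alpha chain, with 62.4% ± 9.72 of the alpha chain TPM in basal cultures, 64.0% ± 7.63 with 1 µM and 69.0% ± 8.49 with 10 µM (SD, n = 3 each). Lama2, the alpha chain of laminin-2, held 17.4% in basal cultures, 17.4% with 1 µM and 15.5% with 10 µM. The beta chain TPM was split between Lamb1, with 43.1% ± 18.5 with 10 µM and 44.5% ± 17.2 in basal cultures, and Lamb2 (SD, n = 3 each). For Itgav, Lama4 and Lamb1 the means of the groups differed by less than the SD within the 10 µM group, which holds the spread between P numbers. Within each P number the Lama4 share was higher with 10 µM, at 59.6%, 76.0% and 71.5% (P11, P13, P14), against 51.7%, 70.6% and 65.1% in basal cultures. The Itgav and Lamb1 shares went both ways. The ranges of the Itgb1 share overlapped, from 71.9% to 75.7% with 10 µM and from 68.9% to 74.3% in basal cultures. Within each P number the Itgb1 share was higher with 10 µM than in basal cultures. No share was tested.

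The genes also differed in how steady they were over the 9 libraries. The highest library was 1.23 times the lowest for Itgb1, 1.45 times for Itgb5 and 1.54 times for Itgav. The same ratio was 18.3 for Lama2, 13.1 for Itga11 and 11.1 for Lamb1.

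**Figure D1:**
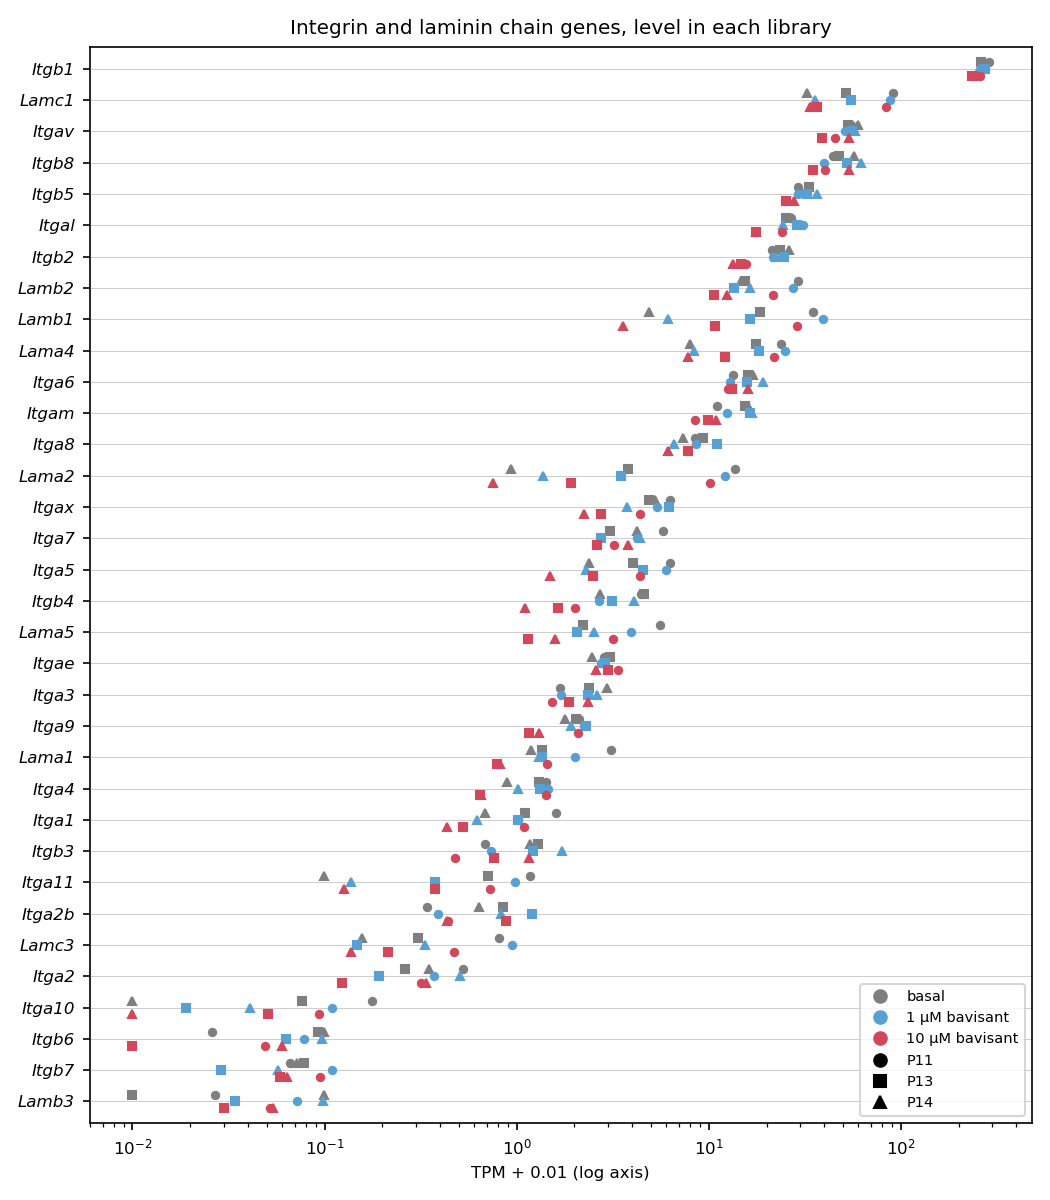
Level of 34 of the genes in each library, in TPM plus 0.01 on a log axis, in the order of the basal means; colours mark the dose and symbols the P number. Itgb1 stands alone at the top between 234 and 288 TPM, while Lama2 and Lamb1 spread over more than 10 times, with the P11 libraries on the right.

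At 10 µM, 8 of the 31 tested genes were lower than in basal cultures and 0 were higher in the edgeR fit that compares libraries of the same P number (Benjamini-Hochberg over all 15321 genes, adjusted p under 0.05). The 8 were the laminin chains Lama1, Lama5 and Lamb2, the laminin receptor chain Itgb4, the fibronectin receptor chain Itga5, and Itgam, Itgax and Itgb2 of the leukocyte integrins. Over all genes, 3.96% were called, 2.64% lower and 1.32% higher. The median log2 fold change of the 31 was -0.37, against -0.01 over all genes, and 30 of the 31 had a negative value, against 52.8% of all genes. Itgae was the exception, at 0.15 ± 0.11 (SE, adjusted p = 0.424). In the edgeR model with no P number term, the test called 0 of the 31 and 0 of all genes, and 6 of the 31 and 808 genes (5.27%) had an unadjusted p under 0.05. That fit compares groups across P numbers, and DESeq2 without the P number called 2 of the 31, Itgb2 and Itgb4. The 8 calls rest on few libraries: leaving out any 1 of the 3 basal libraries, or the P14 library with 10 µM, left 0, and leaving out the P13 library with 10 µM left 1. Over all genes, leaving out 1 library in turn left 0 to 581 calls, so the loss was not particular to these genes. All fold changes and adjusted p-values below come from the fit with the P number, unless said otherwise. The comparisons of 10 µM with basal and of 1 µM with basal share the basal libraries.

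**Figure D2:**
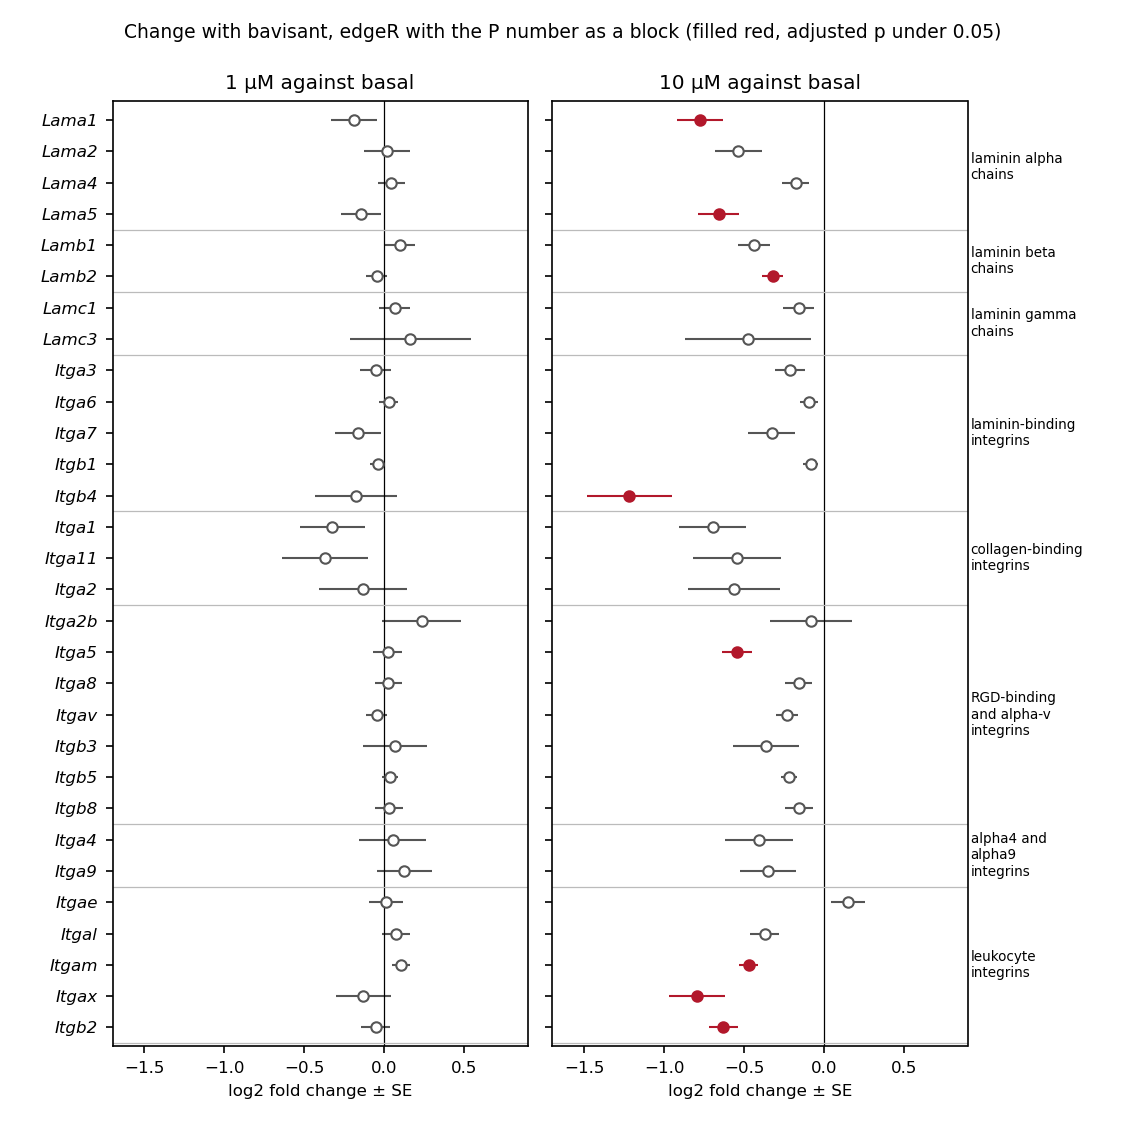
Log2 fold change of 30 of the tested genes against basal (point, with its SE as the bar) for 1 µM on the left and 10 µM on the right, by class; filled red points have an adjusted p under 0.05. At 10 µM all points but Itgae lie left of 0 and 8 are red; at 1 µM they lie on both sides and none is red.

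Among the laminin chains, 3 of 9 tested genes fell at 10 µM, and all 9 had negative log2 fold changes, with a median of -0.48. Levels are given below in CPM (reads scaled to the size of the library by TMM, and not by gene length), always in the order P11, P13, P14. Lama1, the alpha chain of laminin-1, had 9.50, 5.23 and 5.15 CPM with 10 µM, against 20.2, 8.37 and 7.28 CPM in basal cultures. The basal P11 library was the highest, and the P11 library with 10 µM lay above the 2 other basal libraries, so the groups overlapped although 10 µM was lower within each P number. Its log2 fold change was -0.78 ± 0.15 (SE, adjusted p = 0.0315).

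Lama5, the alpha chain of laminin-10 and laminin-11, had 22.0, 7.98 and 10.4 CPM with 10 µM, against 37.2, 13.9 and 13.7 CPM in basal cultures. Again both P11 libraries were the highest of their group and the groups overlapped. The log2 fold change was -0.66 ± 0.13 (SE, adjusted p = 0.0335). Lamb2, the beta chain that replaces beta-1 in synaptic and vascular laminins, had 76.0, 37.5 and 41.9 CPM with 10 µM, against 99.3, 49.4 and 47.3 CPM in basal cultures. It was lower within each P number, with overlapping groups, and its log2 fold change was -0.32 ± 0.07 (SE, adjusted p = 0.0366).

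The upstream windows of the laminin alpha genes that fell are shown because the genes moved the same way while the windows differ in base composition. Each is the 250 bases before the RefSeq gene start in build GRCr8 (the counts were made on rn6), 5′ to 3′ on the gene's strand. Capitals mark the GC box GGGCGG known to bind Sp1, the purine box GAGGAA known to bind PU.1 of the ETS family, and the AP-1 site TGAGTCA, on either strand and without overlap between motifs; the 3 motifs were picked after the sequences had been seen. Lama1 lies at chr9:115139298-115139547 on the plus strand and Lama5 at chr3:187695975-187696224 on the minus strand.
Lama1: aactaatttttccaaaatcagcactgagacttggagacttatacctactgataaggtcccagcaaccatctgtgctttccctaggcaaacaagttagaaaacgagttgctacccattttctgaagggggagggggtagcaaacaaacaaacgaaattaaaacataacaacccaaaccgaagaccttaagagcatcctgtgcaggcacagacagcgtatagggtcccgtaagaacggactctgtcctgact
Lama5: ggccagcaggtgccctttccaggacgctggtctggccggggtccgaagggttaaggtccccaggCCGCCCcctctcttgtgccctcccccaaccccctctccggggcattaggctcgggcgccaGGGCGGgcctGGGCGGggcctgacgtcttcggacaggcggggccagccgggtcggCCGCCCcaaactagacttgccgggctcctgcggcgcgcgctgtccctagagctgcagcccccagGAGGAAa
The Lama5 window holds 4 GC boxes and 1 purine box, and the Lama1 window holds none of the 3 motifs. A GC box was found in 30.5% of 33469 RefSeq windows of this length, and in 14 of the 27 integrin and laminin genes with a window.

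The other laminin chains did not pass the test. Lamb1, the beta chain of laminin-1 and laminin-2, had 103, 38.6 and 12.05 CPM with 10 µM, against 122, 61.5 and 16.0 CPM in basal cultures, and a log2 fold change of -0.44 ± 0.10 (SE, adjusted p = 0.0503). Lama2 had 62.1, 11.7 and 4.27 CPM with 10 µM, against 81.3, 21.7 and 5.21 CPM in basal cultures, and a log2 fold change of -0.53 ± 0.15 (SE, adjusted p = 0.0826). In both genes the P numbers differed by more than the doses did, and 10 µM was lower within each P number. Lama4 had 82.8, 46.5 and 28.1 CPM with 10 µM and 88.6, 62.8 and 28.0 CPM in basal cultures, and Lamc1 had 272, 115 and 101 CPM with 10 µM and 291, 157 and 97.3 CPM in basal cultures. Their log2 fold changes were -0.18 ± 0.09 and -0.16 ± 0.10 (SE), with adjusted p-values of 0.265 and 0.374, and in the P14 pair neither was lower with 10 µM. The rare gamma chain Lamc3 had at most 2.59 CPM in any library and did not pass (adjusted p = 0.503).

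Markers of cells that make basement membranes were measured beside these chains. The summed CPM of the mural cell and fibroblast markers ranged from 1446 to 1670 with 10 µM and from 1337 to 2028 in basal cultures, but that list holds Pdgfra and Cspg4, which are also OPC markers. Without these 2 genes, left out after the values had been seen, the sums for P11, P13 and P14 were 1186, 422 and 232 CPM with 10 µM, against 1580, 645 and 289 CPM in basal cultures. They were lower with 10 µM within each P number. Of the 13 tested markers of the whole list, 11 had negative log2 fold changes (median -0.46), of which Notch3 passed the test, and Pdgfra and Cspg4 were the exceptions. The endothelial markers summed to 25.4 to 64.4 CPM with 10 µM and 33.8 to 80.1 CPM in basal cultures, and 5 of 8 tested were negative, of which Eng passed. The astrocyte markers summed to 2584 to 3703 CPM with 10 µM and 3489 to 4182 CPM in basal cultures, and 14 of 15 were negative, of which 4 passed. Within each P number, the endothelial and the astrocyte sums were lower with 10 µM than in basal cultures. The oligodendrocyte markers summed to 66849 to 76215 CPM with 10 µM, above the 48413 to 58846 CPM of basal cultures, and 9 of 15 passed as higher. Olig1 and Olig2, counted among these 9, are also on the OPC list, where they were the only markers of 11 to rise. Of the 8 Schwann cell markers, Mal alone passed, as higher, while 5 had negative log2 fold changes (median of the 8, -0.20). Mal had 93.1, 14.5 and 20.7 TPM with 10 µM (P11, P13, P14), against 58.3, 13.3 and 14.2 TPM in basal cultures. Mobp of the oligodendrocyte markers was also higher within each P number, at 2034, 393 and 431 TPM against 1159, 315 and 269 TPM. Which cells the Mal reads came from was not tested. All 14 tested neuron markers had negative log2 fold changes, and 4 fell, Gad1 and Gad2 among them. The part of these cell types in the laminin values was not tested.

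Among the receptors, 5 of 22 tested integrin genes fell at 10 µM and 21 of 22 had negative log2 fold changes, with a median of -0.36. Of the 5 laminin-binding chains, Itgb4 fell and the other 4 did not pass. Itgb4, the beta chain that pairs with alpha-6 and is known from hemidesmosomes and Schwann cells, had 7.63, 6.05 and 3.94 CPM with 10 µM, against 16.2, 15.6 and 9.25 CPM in basal cultures. Every library with 10 µM lay below every basal library. The log2 fold change was -1.22 ± 0.27 (SE, adjusted p = 0.0456), the most negative of the 31.

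Itga6 and Itgb1, which together form the main laminin receptor of this lineage, had small log2 fold changes of -0.09 ± 0.06 and -0.08 ± 0.05 (SE), with adjusted p-values of 0.382 and 0.335. Itga6 had 44.6, 47.7 and 54.7 CPM with 10 µM and 46.3, 53.7 and 56.5 CPM in basal cultures. Itgb1 had 574, 530 and 529 CPM with 10 µM and 626, 547 and 556 CPM in basal cultures. In both genes the groups overlapped. Itga3 and Itga7, alpha chains of other laminin receptors, had log2 fold changes of -0.21 ± 0.10 and -0.33 ± 0.15 (SE, adjusted p = 0.238 and 0.233).

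Of 7 tested RGD-binding and alpha-v chains, Itga5 fell. Itga5, the alpha chain of the fibronectin receptor, had 11.6, 6.57 and 3.73 CPM with 10 µM, against 16.0, 9.79 and 5.71 CPM in basal cultures. The 3 values in each group followed the same order over the P numbers, so the groups overlapped while each P number was lower with 10 µM. The log2 fold change was -0.55 ± 0.09 (SE, adjusted p = 0.0248). Itgb5, a partner of alpha-v, had 57.8, 58.5 and 60.6 CPM with 10 µM, against 65.5, 71.1 and 69.5 CPM in basal cultures, with no overlap between groups, and a log2 fold change of -0.22 ± 0.05 that did not pass (SE, adjusted p = 0.0527). Itgav had 89.5, 77.0 and 99.4 CPM with 10 µM and 105, 97.6 and 108 CPM in basal cultures, with a log2 fold change of -0.23 ± 0.07 (SE, adjusted p = 0.0926). Itgb8, whose dimer with alpha-v releases active TGF-beta, had 64.4, 57.5 and 83.2 CPM with 10 µM and 69.5, 71.7 and 86.2 CPM in basal cultures, and a log2 fold change of -0.16 ± 0.09 (SE, adjusted p = 0.334). Itgb3 had 0.669, 1.08 and 1.56 CPM with 10 µM and 0.941, 1.72 and 1.53 CPM in basal cultures, and it did not pass (adjusted p = 0.332).

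The 3 tested collagen-binding chains had log2 fold changes between -0.70 and -0.54 at low levels, and none passed. Itga1 was the nearest, with 2.81, 1.36 and 1.05 CPM with 10 µM against 4.07, 2.69 and 1.62 CPM in basal cultures (log2 fold change -0.70 ± 0.21, SE, adjusted p = 0.0998). Itga4 and Itga9, alpha chains that bind VCAM-1, osteopontin and tenascin, had log2 fold changes of -0.41 ± 0.22 and -0.35 ± 0.18 (SE, adjusted p = 0.303 and 0.280).

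The leukocyte integrins fell in 3 of 5 tested genes. Itgam, the CD11b chain of microglia and macrophages, had 18.5, 21.5 and 22.4 CPM with 10 µM, against 23.5, 31.5 and 31.9 CPM in basal cultures. Itgb2, the CD18 chain that pairs with it, had 30.1, 28.2 and 24.7 CPM with 10 µM, against 39.8, 41.8 and 46.3 CPM in basal cultures. Itgax, the CD11c chain, had 12.9, 8.08 and 6.23 CPM with 10 µM, against 18.1, 13.4 and 14.2 CPM in basal cultures. In all 3 genes every library with 10 µM lay below every basal library. The log2 fold changes were -0.47 ± 0.06 for Itgam (adjusted p = 0.0139), -0.63 ± 0.09 for Itgb2 (adjusted p = 0.0164) and -0.80 ± 0.18 for Itgax (adjusted p = 0.0479), each with its SE. Itgal, the CD11a chain, had 68.3, 49.7 and 47.3 CPM with 10 µM and 73.9, 66.2 and 70.4 CPM in basal cultures, and its log2 fold change of -0.37 ± 0.09 did not pass (SE, adjusted p = 0.0613).

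Over the 31 tested genes, 6 had groups that did not overlap, with 10 µM lower in each, among them Itgam, Itgax, Itgb2, Itgb4 and Itgb5. Over all genes, 4.61% had groups apart with 10 µM lower and 4.72% with 10 µM higher. Within each of the 3 P numbers, 10 µM was lower in 23 of the 31 and higher in 1, Itgae, where all genes gave 24.2% lower and 20.5% higher. Itgam and Itgax are neighbours with no coding gene between them in RefSeq, and the deposited table splits reads between them. In 8 of 9 libraries the Itgam count was a fraction, and in 9 of 9 the sum of the Itgam and Itgax counts was whole to within 0.01 reads. The fractional part of the Itgam count was at most 0.14 reads. At least some reads were thus shared, but how many was not measured. How far the values of Itgam and Itgax depend on each other is therefore not known.

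The windows of these 2 neighbours are shown because both genes fell and they share reads. They were cut and marked in the same way, from chr1:192089342-192089591 for Itgam and chr1:192149799-192150048 for Itgax, both on the plus strand of GRCr8.
Itgam: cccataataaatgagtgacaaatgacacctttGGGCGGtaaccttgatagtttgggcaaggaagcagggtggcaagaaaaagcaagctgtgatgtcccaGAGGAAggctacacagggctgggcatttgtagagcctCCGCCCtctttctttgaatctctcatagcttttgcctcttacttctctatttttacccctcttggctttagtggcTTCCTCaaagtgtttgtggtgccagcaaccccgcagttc
Itgax: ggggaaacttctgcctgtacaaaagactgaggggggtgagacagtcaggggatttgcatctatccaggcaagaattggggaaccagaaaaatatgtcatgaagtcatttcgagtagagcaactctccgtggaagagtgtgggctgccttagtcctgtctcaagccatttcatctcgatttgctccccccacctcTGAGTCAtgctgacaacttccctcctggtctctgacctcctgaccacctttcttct
The Itgam window holds 2 purine boxes, a motif described at the human promoter of the same gene, and 2 GC boxes. The Itgax window holds neither and has 1 AP-1 site. The purine box was found in 23.3% of all windows and in 11 of the 27 integrin and laminin windows, and the AP-1 site in 4.05% of all windows and in 1 of the 27, that of Itgax.

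Markers of microglia and macrophages were measured beside the leukocyte integrins. Their 20 genes summed to 997 to 1161 CPM with 10 µM and to 1012 to 1430 CPM in basal cultures, so the ranges overlapped. Within each P number the sum was lower with 10 µM. In the order P11, P13, P14 it was 999, 1161 and 997 CPM, against 1012, 1430 and 1301 CPM in basal cultures. Of the 20, 19 had negative log2 fold changes, with a median of -0.19, and Mrc1 at -0.62 ± 0.09 (SE, adjusted p = 0.0164) and Cd68 at -0.26 ± 0.05 (SE, adjusted p = 0.0341) fell. None of the 20 was at 0 in any library, and the lowest was P2ry12, at 3.35 to 7.80 TPM. Their part in the integrin values was not tested.

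**Figure D3:**
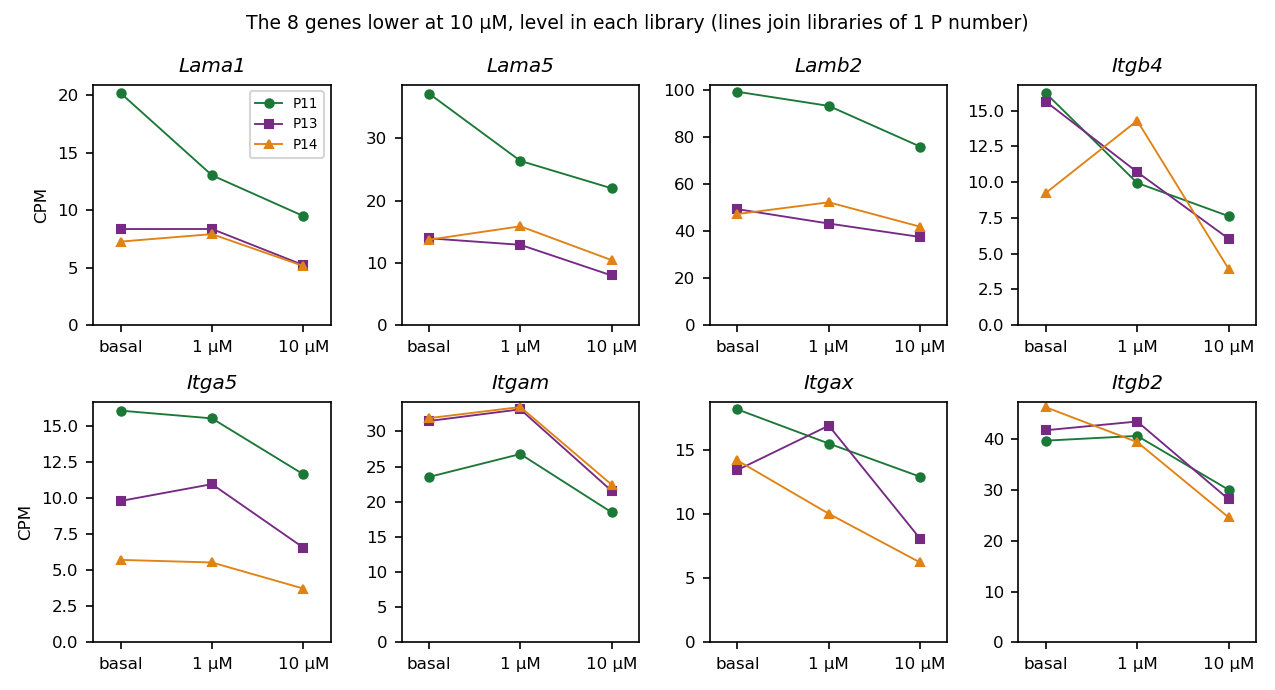
Level in CPM of the 8 genes that were lower at 10 µM, in basal cultures and with 1 µM and 10 µM bavisant; each line joins the 3 libraries of 1 P number. In every panel and for every P number the 10 µM point lies below the basal point, and the 1 µM points lie on either side of basal.

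At 1 µM, 0 of the 31 genes passed against basal cultures, whether the edgeR model held the P number or not, and 0% of all genes were called in either. No member had an unadjusted p under 0.05, against 3.80% of all genes with the P number and 0.529% without. The median log2 fold change of the 31 was 0.02, and 13 of 31 were negative. In 0 of the 31 did the groups lie apart, against 1.44% of all genes with 1 µM lower and 1.48% with 1 µM higher. Within each P number, 1 µM was lower in 1 gene, Itga1, and higher in 5, Itga2b, Itga4, Itga9, Itgam and Lama4, against 14.3% and 13.7% of all genes. Itgb4 had 9.95, 10.7 and 14.3 CPM with 1 µM and 16.2, 15.6 and 9.25 CPM in basal cultures, so that P11 and P13 were lower with 1 µM and P14 was higher. Itgam had 26.8, 33.2 and 33.5 CPM with 1 µM and 23.5, 31.5 and 31.9 CPM in basal cultures, higher with 1 µM in each P number but with overlapping groups. Lama1 had 13.1, 8.37 and 7.93 CPM with 1 µM and 20.2, 8.37 and 7.28 CPM in basal cultures, lower in the P11 pair and not in the others.

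Between the doses, 6 of the 31 genes were lower with 10 µM than with 1 µM and 0 were higher, and 4.3% of all genes were called, 3% lower and 1.31% higher. The median log2 fold change was -0.43, 30 of 31 were negative, and edgeR with no P number term called 0 of the 31 and 0 of all genes, with 4.68% of all genes at an unadjusted p under 0.05. The groups lay apart in 4 of the 31, Itgam, Itgb2, Itgb4 and Itgb5, all with 10 µM lower, against 4.36% of all genes lower and 4.14% higher. Within each P number, 10 µM was lower in 21 and higher in 0, against 21.9% and 20.5% of all genes. This comparison shares its 10 µM libraries with the comparison against basal. Leaving out the P14 library with 10 µM, or the P11 or P14 library with 1 µM, left 0 calls, and leaving out either P13 library of these groups left 1. Over all genes, leaving out 1 library in turn left 0 to 651 calls.

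The leukocyte chains Itgam, Itgb2 and Itgal were among the 6. Itgam had the 18.5, 21.5 and 22.4 CPM given above with 10 µM, against 26.8, 33.2 and 33.5 CPM with 1 µM, and a log2 fold change of -0.58 ± 0.06 (SE, adjusted p = 0.0123). Itgb2 had 30.1, 28.2 and 24.7 CPM with 10 µM, against 40.7, 43.5 and 39.5 CPM with 1 µM, and a log2 fold change of -0.58 ± 0.09 (SE, adjusted p = 0.0211). In both genes the 2 groups did not overlap. Itgal had 68.3, 49.7 and 47.3 CPM with 10 µM, against 85.8, 75.6 and 62.8 CPM with 1 µM, and overlapped (log2 fold change -0.45 ± 0.09, SE, adjusted p = 0.0361). Itgax, with 15.5, 16.9 and 10.0 CPM with 1 µM, did not pass between the doses (adjusted p = 0.0738). Of the 20 microglia and macrophage markers, all 20 had negative log2 fold changes between the doses, with a median of -0.37, and 7 fell, C1qa, Trem2 and Aif1 among them. Those markers summed to 1155 to 1495 CPM with 1 µM, and their part in the integrin values was not tested.

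The other 3 were Itga5, Itgb5 and Lamb1. Itga5 had 11.6, 6.57 and 3.73 CPM with 10 µM, against 15.5, 10.96 and 5.53 CPM with 1 µM (log2 fold change -0.57 ± 0.09, SE, adjusted p = 0.0225). Itgb5 had 57.8, 58.5 and 60.6 CPM with 10 µM, against 65.6, 69.6 and 76.5 CPM with 1 µM, with no overlap (log2 fold change -0.26 ± 0.05, SE, adjusted p = 0.0328). Lamb1 had 103, 38.6 and 12.05 CPM with 10 µM, against 138, 54.6 and 20.1 CPM with 1 µM (log2 fold change -0.54 ± 0.10, SE, adjusted p = 0.0283). Itga5 and Lamb1 overlapped between groups because their P numbers differed by more than the doses did. Itgb4, Lama1, Lama5 and Lamb2, which passed against basal, had log2 fold changes of -1.04 ± 0.27, -0.59 ± 0.15, -0.52 ± 0.13 and -0.28 ± 0.07 between the doses (SE) and did not pass, with adjusted p-values of 0.0689, 0.0629, 0.0612 and 0.0546.

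Other genes of the adhesion pathway were counted in 3 lists. With 10 µM against basal, 3.96% of all genes were called, 2.64% lower and 1.32% higher. Of 34 tested ligands of integrins other than laminins, 4 fell and 0 rose with 10 µM against basal, 33 had negative log2 fold changes and the median was -0.40. Spp1, which encodes osteopontin, a ligand of alpha-v and alpha-4 integrins, fell by 1.26 ± 0.14 on the log2 scale (SE, adjusted p = 0.0114). L1cam, a neural adhesion molecule that also binds integrins, fell by 0.52 ± 0.09, Vcam1, the ligand of alpha-4 beta-1, fell by 0.50 ± 0.09, and Ltbp1, which anchors latent TGF-beta, fell by 0.49 ± 0.11 (SE, adjusted p = 0.0240, 0.0263 and 0.0497). Between the doses, 10 of the 34 fell with 10 µM, among them Lrrc32, Col3a1, Spp1 and Col1a1.

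Inside the cell, integrins act through talin, kindlins, kinases and actin linkers. Of 45 tested genes of this machinery, 5 fell and 1 rose with 10 µM against basal, against 2.64% and 1.32% of all genes. The genes went both ways, with 26 negative log2 fold changes and 19 positive, and the median was -0.04, against -0.01 over all genes. In the same edgeR fit, 19 of the 45 had an unadjusted p under 0.05, against 22.4% of all genes. Apbb1ip, which links Rap1 to talin and is known from blood cells, fell by 0.48 ± 0.08, and Fermt3, the kindlin of blood cells, fell by 0.45 ± 0.08 on the log2 scale (SE, adjusted p = 0.0230 and 0.0296). The actin crosslinker Flna fell by 0.59 ± 0.11 and the adaptor Nedd9 by 0.41 ± 0.08 (SE, adjusted p = 0.0315 and 0.0318). Rap1a, a small GTPase that activates integrins, rose by 0.23 ± 0.04 (SE, adjusted p = 0.0275).

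Of 32 tested basement membrane and dystroglycan genes, 3 fell and 1 rose, and the median over the list was -0.08 on the log2 scale. Sparc fell by 0.35 ± 0.05, the proteoglycan gene Bgn by 0.38 ± 0.07 and Nid1, which links laminin to collagen IV, by 0.34 ± 0.07 on the log2 scale (SE, adjusted p = 0.0164, 0.0305 and 0.0472). At 1 µM against basal, 0 genes of the 3 lists passed.

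**Figure D4:**
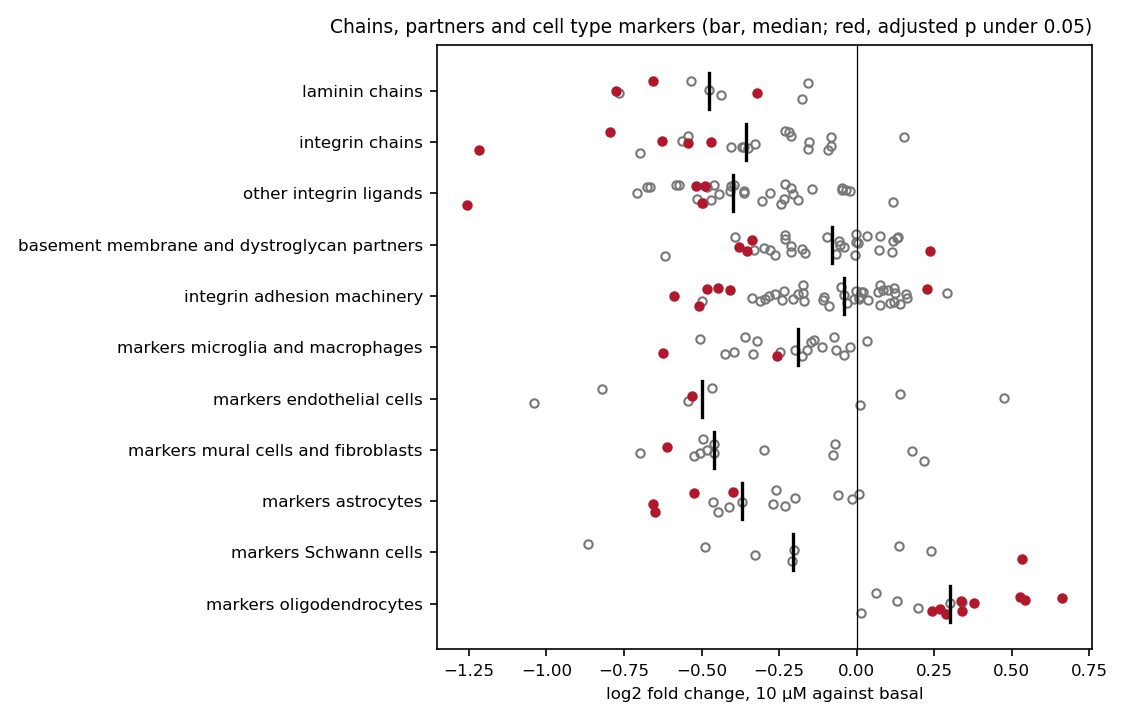
Log2 fold change at 10 µM against basal of the tested genes of each list, with the median as a black bar. The neuron and OPC markers are not drawn. Red points have an adjusted p under 0.05. The laminin chains, the integrin chains and the other ligands have medians of -0.48, -0.36 and -0.40. The adhesion machinery lies on both sides of 0, with 5 red points to the left and 1 to the right. The oligodendrocyte markers lie to the right of 0.

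The laminin chains had larger log2 differences between P numbers than between doses, with a median of 1.19 for P11 over the other P numbers and of -0.48 for 10 µM over basal. In P11 against the mean of P13 and P14, with the dose in the fit, 23 of the 31 genes passed, 17 higher and 6 lower, against 50.6% of all genes (25.2% higher and 25.4% lower). Of the 9 laminin chains, 8 were higher in P11 and 0 were lower. This contrast was chosen because the P11 libraries were already known to stand apart, and the P number cannot be told apart from whatever differed between these libraries besides it.

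Lama2 had 81.3, 72.5 and 62.1 CPM in the P11 libraries (basal, 1 µM, 10 µM), against 21.7, 19.8 and 11.7 CPM in P13 and 5.21, 7.52 and 4.27 CPM in P14. The P numbers did not overlap at any dose. Its log2 difference, P11 over the others, was 2.87 ± 0.12 (SE), the largest of the 31. Lamb1 had 122, 138 and 103 CPM in P11, against 61.5, 54.6 and 38.6 CPM in P13 and 16.0, 20.1 and 12.05 CPM in P14, again with no overlap, and a log2 difference of 2.09 ± 0.08 (SE). Lamc1, the third chain of laminin-2, had 291, 284 and 272 CPM in P11, against 157, 169 and 115 CPM in P13 and 97.3, 107 and 101 CPM in P14 (log2 difference 1.21 ± 0.08, SE). Lama5, Lama4, Lamb2 and Lama1 had log2 differences of 1.19 ± 0.10, 1.13 ± 0.07, 0.98 ± 0.05 and 0.98 ± 0.12, and the rare Lamc3 had 1.85 ± 0.31 (SE). Lama2, Lamb1, Lama4 and Lamc1 also passed as higher in P13 than in P14, by 1.62, 1.68, 1.02 and 0.51 on the log2 scale, where 10 of the 31 passed, 7 higher and 3 lower, against 12.3% of all genes (7.38% higher and 4.88% lower).

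The upstream windows of the 2 laminin chains with the largest differences between P numbers are shown for comparison with those of Lama1 and Lama5. They were cut and marked as above, from chr1:19491896-19492145 for Lama2 and chr6:53562846-53563095 for Lamb1, both on the plus strand of GRCr8.
Lama2: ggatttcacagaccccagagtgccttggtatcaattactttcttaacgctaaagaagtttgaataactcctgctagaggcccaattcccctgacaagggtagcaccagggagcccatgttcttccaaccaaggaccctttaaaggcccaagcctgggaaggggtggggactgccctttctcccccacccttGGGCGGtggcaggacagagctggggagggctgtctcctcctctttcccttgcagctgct
Lamb1: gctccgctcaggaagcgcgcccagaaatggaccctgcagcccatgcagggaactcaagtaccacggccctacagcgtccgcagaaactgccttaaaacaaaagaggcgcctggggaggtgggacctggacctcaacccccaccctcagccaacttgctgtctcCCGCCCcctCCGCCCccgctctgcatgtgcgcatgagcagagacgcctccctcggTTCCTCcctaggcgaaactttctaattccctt
The Lama2 window holds 1 GC box and the Lamb1 window holds 2 GC boxes and 1 purine box.

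**Figure D5:**
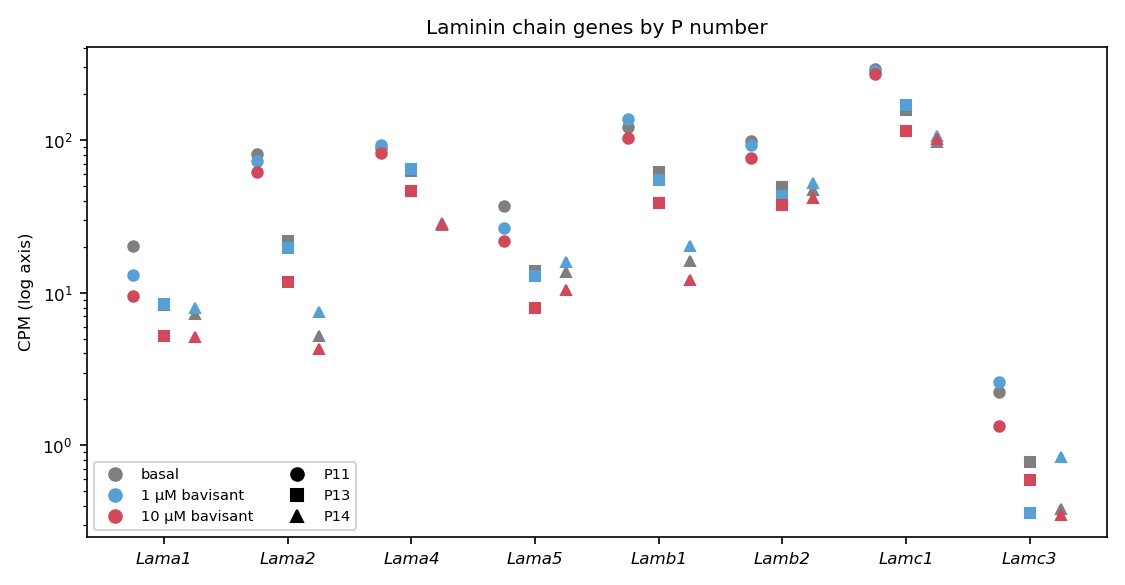
Level in CPM on a log axis of 8 laminin chain genes in each library, with P11, P13 and P14 side by side for each gene and colours for the dose. For Lama2, Lamb1 and Lama4 the 3 P numbers form separate steps, and within a step the doses lie close together.

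Receptors differed between P numbers in both directions. The collagen receptor chain Itga11 was higher in P11 by 2.10 on the log2 scale, Itga5 by 1.11 ± 0.08 (SE), Itga1 by 0.87 and Itga4 by 0.68. Itgb3, Itga2b, Itga3, Itgam, Itga6 and Itgb8 were lower in P11, by -0.81, -0.80, -0.45, -0.33, -0.27 and -0.25. Itga6 had 46.3, 44.6 and 44.6 CPM in P11 (basal, 1 µM, 10 µM), against 53.7, 52.9 and 47.7 CPM in P13 and 56.5, 63.1 and 54.7 CPM in P14. Every P11 library was thus below every other library. Itgav and Itgb2 had log2 differences of 0.00 and did not pass.

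Markers of several cell types differed between P numbers, in both directions. Col1a1, a collagen gene of fibroblasts, stood at 197, 184 and 133 TPM in P11 (basal, 1 µM, 10 µM), against 65.1, 90.6 and 40.0 TPM in P13 and 23.0, 27.6 and 17.5 TPM in P14. The endothelial marker Cdh5 stood at 18.8, 21.9 and 15.1 TPM in P11, against 7.89, 6.57 and 4.49 TPM in P13 and 1.91, 2.70 and 1.40 TPM in P14. Both had their steps in the same order as Lama2 and Lamb1. The mural cell and fibroblast markers summed to 1670 to 2069 CPM in P11, 1520 to 1832 CPM in P13 and 1337 to 1446 CPM in P14. Of the 13 tested, 7 were higher in P11 and 3 were lower, Pdgfra, Cspg4 and Myh11. Without Pdgfra and Cspg4, the basal sums were 1580 CPM in P11, 645 CPM in P13 and 289 CPM in P14, a wider step than that of the whole list. The Schwann cell markers summed to 214 to 240 CPM in P11, against 80.1 to 89.6 CPM in P13 and 77.2 to 81.0 CPM in P14, and 7 of 8 passed as higher in P11. In P11 Mal had the most TPM of these markers, 58.3 to 93.1 TPM, against 13.3 to 20.7 TPM in P13 and P14. The endothelial markers summed to 64.4 to 87.8 CPM in P11, 41.1 to 58.2 CPM in P13 and 25.4 to 38.1 CPM in P14, and 4 of 8 tested passed as higher (Cdh5, Kdr, Flt1 and Tek) and 3 as lower (Eng, Esam and Vwf). That step in the sum was that of Cdh5, since without it, a choice made after seeing the values, the basal sums were 34.7 CPM in P11, 40.1 CPM in P13 and 29.5 CPM in P14. Of the microglia and macrophage markers, 14 of 20 were lower in P11 and 0 were higher, as Itgam was lower, and they summed to 999 to 1155 CPM in P11, 1161 to 1495 CPM in P13 and 997 to 1364 CPM in P14. Of the oligodendrocyte markers, 11 of 15 were higher in P11 and 1 was lower. Of the astrocyte markers, 4 of 15 were higher and 6 lower, of the 14 tested neuron markers 3 were higher and 9 lower, and of the 11 OPC markers 4 were higher and 4 lower. The part of any of these cell types in the laminin and integrin levels was not tested.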

How the data were processed

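RNA was measured in 9 libraries, 3 each for basal, 1 µM bavisant and 10 µM bavisant. Per the labels' protocols, RNA was extracted with RNeasy and made into stranded mRNA libraries for an Illumina NextSeq. The low dose is 1 mM in a protocol text but 1 µM in the treatment label and in the design, and 1 µM was used. The submitters' processing notes name FastQC, Trimmomatic, DRAGEN, Picard and build rn6. The counting program, its strand setting and the annotation were not given in the sources used here. Expected or estimated counts per gene were deposited by the authors (86.5% of the values above 0 are whole) without scaling between libraries. The authors also deposited TPM values, which are scaled by gene length. Names came with the tables, except for 399 IDs, and the counts were rounded.

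Differences were tested with edgeR 4.0.16 in R 4.3.3 (quasi-likelihood, TMM, 1 coefficient per group, all 9 libraries). The filterByExpr defaults (count minimum 10, total minimum 15) left 15321 genes, over which p-values were adjusted by Benjamini-Hochberg, with 0.05 as the limit for a call. The SE was taken as the absolute log2 fold change divided by the root of F. The design as set had no block. The P numbers of the titles paired the libraries. Deviations from the group means correlated at 0.319 to 0.772 in all 9 same-number pairs and at -0.708 to 0.193 in 18 others. The fold changes, SEs and adjusted p-values of the Results were therefore taken from an alternative fit, with the P number as a block. The fit as set called 0 of all genes in each dose comparison. The common dispersion was 0.00696 with the block, against 0.0675 without. No 2 libraries of a group agreed within counting noise. Where a library has 0 reads of a gene, counting error alone allows up to 3 reads.

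The member genes, gene lists and tests were chosen with earlier results of these data known. Named with values were members called at any dose, a set core of members, the 5 highest basal TPM means, and up to 4 genes called per list and direction. Of 271 symbols in the lists, 257 were in the file. The lists were the integrin and laminin classes, other integrin ligands, adhesion machinery, basement membrane and dystroglycan genes, and markers of 8 cell types. Alternatives were DESeq2 1.42.0, limma 3.58.1 on log2(TPM + 1), other scalings and filters, and fits with libraries left out. The script was tested on simulated data. All 35 genes matched a RefSeq gene by symbol, and 27 had an upstream window in the RefSeq table (GRCr8); Itga6, Itga7, Itgal, Itgb2, Itgb3, Itgb4 and Lamb2 were among those without a window. The values of 1 member and of 1 gene of the lists are not reported here, though both are in the counts and medians.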

Additional observations from a re-analysis of the deposited data

How the results depend on the processing

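The counts of called genes depended on the pairing by P number and on single libraries. For 10 µM against basal, edgeR without the block called 0 of the 31 genes and DESeq2 without it called 2; with the replicate block, edgeR called 8, with library totals 11, with DESeq2 size factors 9, with a mean of at least 100 reads 11, DESeq2 called 12, limma on log2(TPM + 1) called 4, and edgeR without all P11 libraries called 0. Leaving out 1 library in turn gave 0 to 7 with the block and 0 to 0 without. Over all genes these fits called 0 to 581 with the block and 0 to 0 without. For 10 µM against 1 µM, the counts were 0 and 1 without the block (edgeR, DESeq2), and with it 6, 10, 6, 7, 12, 6 and 1 in the same order, and 0 to 8 with 1 library left out. Over all genes, leaving out 1 library with the block left 0 to 651 calls. Every called gene of the 31 was lower with 10 µM. For 1 µM against basal, each of these settings called 0 of the 31. With the block, no log2 fold change of the named genes for 10 µM against basal changed sign when 1 library was left out (0 of 225), and none of the 8 calls held in all 9 such fits. Itgam kept its call in 5 of 9, Itga5 and Itgb2 in 4, Itgb4 and Lama5 in 3, Itgax and Lama1 in 2 and Lamb2 in 1. The median of all genes moved by less than 0.1 on the log2 scale between scalings. For P11 against P13 and P14 the count was 23, with 17 to 24 when 1 library was left out, 15 with limma on log2(TPM + 1), and 10 for P13 against P14 instead. Where counts differ between settings, the cause was not tested. Low counts limit Itga10, Itgb6, Itgb7 and Lamb3, which were too low to test, and leave the rare Lamc3 with a wide error.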
